A study of Drosophila melanogaster with 2 samples.

Results

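Of the 30000 relaxed peaks called for the tagged homeodomain protein OdsH in Drosophila melanogaster larvae, 579 (1.93%, 95% Wilson interval 1.78 to 2.09) had their summit inside coding sequence and more than 500 bp from any annotated transcription start site. They were chosen by summit position alone among the listed peaks, so no signal value entered the rule itself. The summits were set against the Ensembl coding features, which leave out the stop codon. Coding sequence that far from a start site makes up 13.8% of the length of the 6 chromosome arms, which gave a share of peaks 0.14 times the share of length. The 579 peaks lay in 519 genes.

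The measurement was chromatin immunoprecipitation with sequencing in whole larvae that had begun to wander late in the third instar. All larvae came from a transgenic line that carries OdsH with GFP at its C terminus, and chromatin was precipitated with an antibody against GFP. There was 1 group, OdsH-GFP, with 2 biological replicates, and no other genotype or treatment. The whole animal mixes all tissues, the labels record no sex, and the fragments of 200 to 800 bp limit how closely a summit can mark a base. The number of reads behind each peak is unknown here, and every interval below covers counting error over peaks only.

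OdsH is a homeodomain protein and a paralog of Unc-4, and its rapid divergence between fly species is tied to sterility of hybrid males. Homeodomain proteins hold DNA through a recognition helix that reads short AT-rich sites with a TAAT core, mostly in promoters, introns and intergenic enhancers. Coding exons are held GC-richer by their codons and are seldom enhancers, although some are. A relaxed peak list is made on purpose with background included, so that the irreproducible discovery rate (IDR) can be estimated from how peaks recur between replicates. Peaks are not replicates, and a p-value over peaks treats them as independent.

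Sequences from 7 coding-exon peaks of the list thresholded on IDR are shown to contrast summits at the end of coding sequence with summits inside it, and they were picked for that and not by rank. Each is the reference sequence within 50 bp of the summit, on the strand of the gene, from the dm6 build, with coding bases in capitals and intronic bases in lower case, and untranslated ends are left off. In the first 3 the window crosses the end of a coding stretch, and in the other 4 the window is wholly coding. The CG10357 sequence spans chr3L:3616491-3616546, su(w[a]) spans chrX:1041586-1041638, Naprt spans chr2L:4195831-4195931 and klar spans chr3L:506184-506284. The Ubr1 sequence spans chrX:16967569-16967669, btsz spans chr3R:14819929-14820029 and Exn spans chr3L:16981374-16981474. Naprt, klar, Ubr1 and btsz lie on the minus strand, and CG10357, su(w[a]) and Exn on the plus strand.
CG10357: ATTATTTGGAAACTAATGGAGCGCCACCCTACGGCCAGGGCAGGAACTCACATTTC
su(w[a]): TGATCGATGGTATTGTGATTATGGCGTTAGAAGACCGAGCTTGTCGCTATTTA
Naprt: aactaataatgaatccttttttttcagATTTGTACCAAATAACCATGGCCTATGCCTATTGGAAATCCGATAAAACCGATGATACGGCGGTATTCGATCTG
klar: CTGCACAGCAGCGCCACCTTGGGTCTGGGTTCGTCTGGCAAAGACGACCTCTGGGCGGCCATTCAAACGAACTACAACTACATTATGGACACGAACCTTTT
Ubr1: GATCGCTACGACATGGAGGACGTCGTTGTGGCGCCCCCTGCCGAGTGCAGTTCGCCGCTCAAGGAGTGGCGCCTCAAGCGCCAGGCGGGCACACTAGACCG
btsz: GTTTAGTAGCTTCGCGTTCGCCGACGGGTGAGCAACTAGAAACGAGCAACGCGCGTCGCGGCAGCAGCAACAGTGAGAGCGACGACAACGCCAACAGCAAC
Exn: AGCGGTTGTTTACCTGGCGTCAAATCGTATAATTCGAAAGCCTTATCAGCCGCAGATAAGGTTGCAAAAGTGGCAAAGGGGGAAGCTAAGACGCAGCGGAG
The homeodomain core TAAT, read on either strand, occurred 2 times in the CG10357 window, 4 times in su(w[a]), 2 times in Naprt, 1 time in klar and 1 time in Exn. Counts and percentages cover the whole window, and in su(w[a]) 3 of the 4 lie in the untranslated bases left off. It occurred 0 times in Ubr1 and in btsz. The su(w[a]) window was 65.3% A and T, the Naprt window 63.4% and the CG10357 window 53.5%. The wholly coding windows stood at 50.5% in Exn, 46.5% in klar, 40.6% in btsz and 32.7% in Ubr1. Among wholly coding windows not printed, TAAT occurred 2 times in Tim17b1, 1 in CG31673 and 0 in CG31259, bif and CG42327.

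The coding-exon peaks were weak. Their signal, a value from the authors' caller whose scale is not stated, ran from 27.2 to 633 with a median of 33.2 (quartiles 29.3 and 39.95). The other 29421 peaks of the list had a median of 56.9 (quartiles 37.5 and 107), and the 12525 intronic peaks among them had a median of 52.6. The lowest signal anywhere in the list was 27.2, close to the lower quartile of the coding-exon peaks. Of the 579, 14 had a signal over 100, 49 had a signal of 50 to 100 and 516 were lower. Of the 579, 577 (99.7%) had the list's commonest width of 444 bp, against 93.8% of the other peaks. A -log10 q-value over 2 was given to 29 of the coding-exon peaks (5.01%) and to 40.1% of the other peaks.

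Ranked by signal and split into 10 equal deciles, the list held 3 coding-exon peaks in its strongest decile and 189 in its weakest. The counts in the deciles between, from stronger to weaker, were 5, 9, 13, 15, 34, 67, 99 and 145. The last 4 deciles held 500 of the 579 (86.4%).

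**Figure D1:**
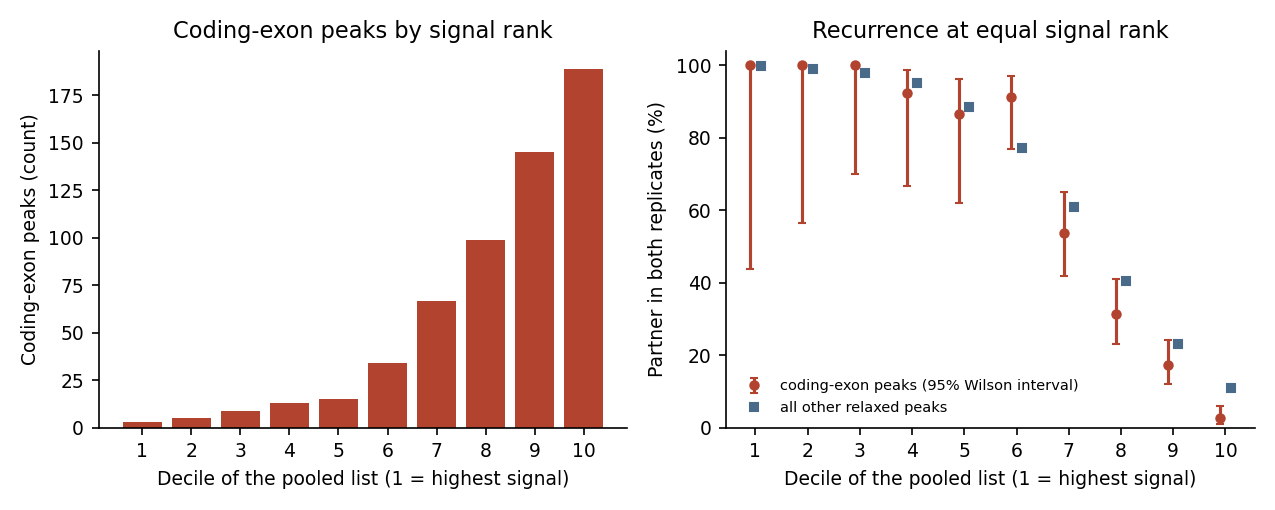
The left bars give the number of coding-exon peaks in each decile of the pooled list, 3 in the strongest and 189 in the weakest. The right points give the percentage of peaks with a partner in both replicate lists (circles, coding-exon peaks with 95% Wilson intervals; squares, all other relaxed peaks), which falls with signal for both and reaches 2.65% and 10.9% in the weakest decile.

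Most coding-exon peaks did not recur in both replicates. A partner, meaning a summit within 200 bp in a replicate's own relaxed list, was present in both replicates for 170 of the 579 (29.4%, interval 25.8 to 33.2), and for 69.9% of the other peaks. The background over all 30000 peaks was 69.2%. The difference, coding-exon minus other peaks, was -40.6 percentage points (Fisher's exact test, two-sided, p = 7.09e-87 after Benjamini-Hochberg adjustment over 6 tests). Intronic peaks recurred in 68.2% (Fisher's exact adjusted p = 3.39e-77), and all peaks outside promoters, the coding-exon ones left out, in 67.0% (adjusted p = 9.35e-74). A further 172 coding-exon peaks had a partner in replicate 1 alone, 178 in replicate 2 alone and 59 in neither (10.2%, against 2.42% of the other peaks). The replicates therefore missed the coding-exon peaks about equally often, with 342 partners in replicate 1 and 348 in replicate 2. Applied to each replicate's own list of 30000, the same rule kept 650 peaks in replicate 1 and 655 in replicate 2.

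Signal moved with this result. Median signal was 44.3 for peaks with both partners, 32.0 with a partner in replicate 1 alone, 31.6 in replicate 2 alone and 28.7 with none. When the other peaks were weighted to the coding-exon peaks' spread over the deciles, 35.2% of them had both partners, and the difference was -5.82 percentage points. The Mantel-Haenszel odds ratio of coding-exon over other peaks, taken across the deciles, was 0.665 with a 95% interval of 0.529 to 0.835. Among the 15000 strongest peaks, 93.3% of 45 coding-exon peaks and 96.0% of the others had both partners (Fisher's exact p = 0.427). In the weaker deciles the shares were 53.7% and 61.0% in decile 7, 31.3% and 40.4% in decile 8, 17.2% and 23.2% in decile 9, and 2.65% and 10.9% in decile 10, coding-exon peaks given first. Decile 6 ran the other way, with 91.2% of 34 coding-exon peaks against 77.2% of the others.

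Over the 170 coding-exon peaks with both partners, the partner signal had a median of 22.3 in replicate 1 (14.8 to 312) and 22.1 in replicate 2 (14.6 to 322). The log2 ratio of replicate 2 to replicate 1 had a median of -0.01 (SD 0.47 over peaks), and replicate 2 was higher at 83 of the 170. The other peaks with both partners had a median ratio of 0.17 (SD 0.64), toward replicate 2. The replicates were within 1.5 times of each other at 131 of the 170 and more than 2 times apart at 8. The replicate lists end at 14.8 and 14.6, so a partner weaker than that could not be seen, and no share of this kind was computed for other peaks of like signal. Across these 170 peaks Spearman's rank correlation was 0.558 and Pearson's r on log2 signal was 0.814, given as a description, since all points come from the same pair of libraries. For 144 of the 170 the coding-exon peak was the pooled summit nearest to both partners, and there the median log2 ratio was -0.03 (SD 0.45). Over the 170, the median offset of the partner summit was 23 bp in replicate 1 and 21 bp in replicate 2.

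**Figure D2:**
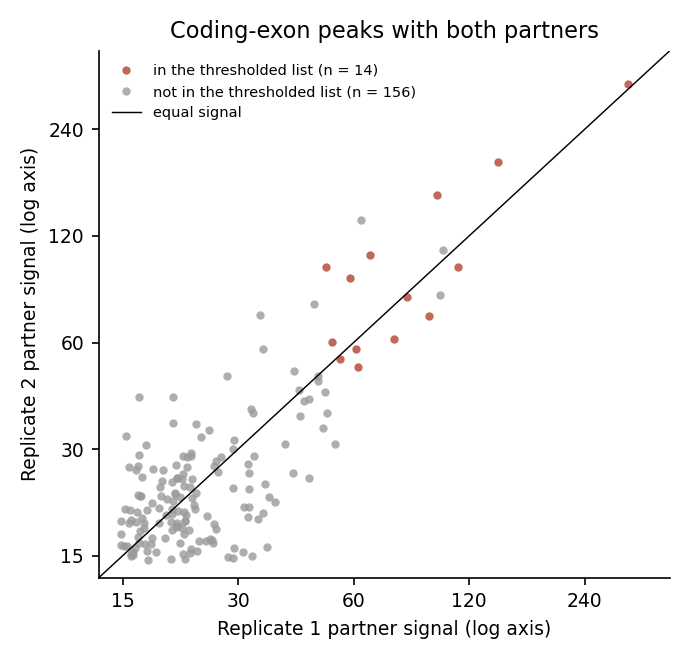
Each point is 1 of the 170 coding-exon peaks with partners in both replicates, placed by its partner's signal in replicate 1 and in replicate 2, both on log axes, with the line of equal signal. The 14 peaks of the thresholded list sit toward the upper right. The other 156 fill the range from the lists' lower ends upward, where the cloud is round, and some lie among the 14. One of these is caup at 62.8 and 133, whose replicate 2 partner is nearer to another pooled summit.

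The coding call itself did not always carry over to the replicates. In replicate 1, 290 of the 342 partner summits (84.8%) fell in coding sequence that the rule would keep, 47 fell in non-coding sequence and 5 within 500 bp of a start site. In replicate 2 the counts were 291 of 348 (83.6%), 48 and 9. Of the 170 peaks with both partners, 124 (72.9%) were coding in both replicates.

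The list thresholded on IDR held 14 of the 579 coding-exon peaks (2.42%, interval 1.45 to 4.02) and 24.5% of the other peaks, against a background of 24.1% of all 30000. The difference had an adjusted p of 1.69e-49 (Fisher's exact test), and intronic peaks stood at 21.9% (adjusted p = 2.25e-41). The thresholded list is the strongest part of the pooled list by signal, so this comparison restates the low signal of coding-exon peaks as a share. All 14 had a partner in both replicates, 11 of them with coding summits in both, and replicate 2 was the higher at 7. Their signal ran from 112 to 633 with a median of 140.0.

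The strongest was in otp (FBgn0015524), which encodes a homeodomain protein of the developing hindgut and brain, at 2R 20884438 to 20884752. It had a pooled signal of 633, with 312 in replicate 1 and 322 in replicate 2, which placed it at rank 498 of the pooled list, rank 418 in replicate 1 and rank 589 in replicate 2. Its summit lay in the last coding exon, 152 bp from untranslated sequence, and the nearest other thresholded summit was 46516 bp away. The next highest pooled signal of a coding-exon peak was 332.

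The peak in CG10357 (FBgn0035453, 3L 3616465 to 3616660) had a pooled signal of 332, with 142 in replicate 1 and 194 in replicate 2. Its summit was 6 bp from the end of the coding sequence, where the stop codon counts as non-coding. The peak in klar (FBgn0001316, 3L 506012 to 506455), which encodes a protein of nuclear migration and organelle transport, had 265, 98.9 and 156. Ubr1 (FBgn0030809, X 16967397 to 16967840), a ubiquitin ligase of the N-degron pathway, had 207, 113 and 97.8. CG31259 (FBgn0051259, 3R 8524281 to 8524724) had 167, 94.2 and 71.4. In these sets of 3 the pooled value stands before replicate 1 and replicate 2, and the replicates were within 2 times of each other in each of them.

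The peak in su(w[a]) (FBgn0003638, X 1041414 to 1041857), a regulator of splicing, had 163, 82.6 and 80.5 in the same order. Its summit was 3 bp from non-coding sequence, and the partner summits of both replicates were non-coding, so its place among coding peaks rests on the pooled list. jing (FBgn0086655, 2R 6502981 to 6503424), a zinc finger transcription factor, had 143, 50.8 and 97.9. The Naprt peak (FBgn0031589, 2L 4195659 to 4196102), in an enzyme of NAD synthesis, had 137, 76.3 and 61.3, and its summit lay 24 bp inside the exon that opens after the intron printed above in lower case. Its replicate 1 partner summit was non-coding.

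Of the 14, 3 lay farther than 222 bp, or the distance from the middle of a peak of the commonest width to its end, from any non-coding base. The peak in btsz (FBgn0266756, 3R 14819757 to 14820200), a synaptotagmin-like protein of the apical membrane, was 1305 bp deep in a coding exon of 7035 bp and had 126, 60.9 and 57.5. The peak in CG42327 (FBgn0259227, 3R 11669530 to 11669973) was 1230 bp deep and had 115, 52.8 and 60.1. The peak in Exn (FBgn0261547, 3L 16981202 to 16981645) was 744 bp deep and had 112, 61.4 and 51.1. The replicates were within 1.5 times of each other at all 3, and both partner summits were coding at each. The summit in CG42327 was coding in every annotated coding transcript of its gene, and those in btsz and Exn in only some. Transcripts that do not reach the summit were counted too.

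The remaining thresholded peaks were CG31673 (FBgn0051673, 2L 20830171 to 20830614), bif (FBgn0014133, X 11681604 to 11682047) and Tim17b1 (FBgn0037310, 3R 5300576 to 5301019). The actin-binding protein gene bif had 124, 58.6 and 91.3, and Tim17b1, a subunit of mitochondrial protein import, had 114, 55.4 and 54.0. CG31673 had 125, 66.0 and 106, but another thresholded summit lay 206 bp away, and its replicate 2 partner was nearer to that one. The lowest signal in the thresholded list was 109, and the first coding-exon peak under it was in tweek (FBgn0261671), a gene of synaptic vesicle recycling, at 98.5, with 76.9 in replicate 2. Its replicate 1 partner, of 47.3, was non-coding, 193 bp away and nearer to another pooled summit.

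Summits lay close to the ends of coding sequence. Their distance to the nearest non-coding base had a median of 80 bp (quartiles 31 and 227), against 171 bp (63 and 406) over all the coding bases that the rule could keep. Within 50 bp of such an edge lay 220 of the 579 (38.0%, interval 34.1 to 42.0), against 20.6% of the bases. Farther than 222 bp lay 150 (25.9%), against 42.6% of the bases, and farther than 500 bp lay 39 (6.74%), against 19.2%. Of the 220 summits near an edge, 163 faced an intron and 57 faced an untranslated or non-coding exon. Since peaks were 444 bp wide as a rule, a median of 74.3% of a peak's own length was coding, 150 peaks were coding throughout and 108 (18.7%) were coding over less than 50% of their length. No test was run against the bases, which are not independent.

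**Figure D3:**
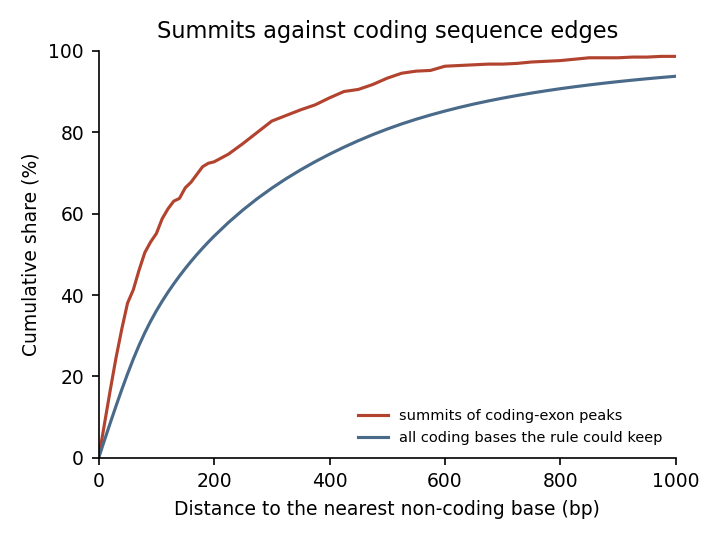
The curves give the cumulative percentage of summits of coding-exon peaks (upper) and of all coding bases the rule could keep (lower) by distance to the nearest non-coding base in bp. At 50 bp the curves stand at 38.0% and 20.6%.

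Recurrence did not move in step with distance from the edge. Both partners were present for 28.2% of the 220 within 50 bp (interval 22.7 to 34.5), for 34.0% of the 209 at 51 to 222 bp (27.9 to 40.6) and for 24.7% of the 150 farther in (18.5 to 32.1). Their median signals were 33.9, 32.7 and 32.2 in that order, and thresholded peaks numbered 3, 8 and 3. The intervals overlap, and the differences were not tested.

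Place in the gene was read on a single transcript per peak, the one with the longest coding sequence among those coding at the summit. There, 57 peaks lay in the only coding exon, 106 in the first, 254 (43.9%) in an internal one and 162 in the last. Along that coding sequence, cut into 3 equal parts, 211 lay in the first part, 163 in the middle and 205 in the last. The host exon had a median length of 491 bp and ranged from 32 to 7035 bp. The summit was coding in every annotated coding transcript of the gene, counting those that do not reach it, for 475 of the 579 (82.0%). Distance to the nearest start site had a median of 1292 bp, against 1783 bp over the bases, and 217 peaks (37.5%) were within 1 kb of one, against 25.1% of the bases.

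The host genes often carried stronger peaks elsewhere. Another thresholded summit lay within the gene or 1 kb of it for 379 of the 579 (65.5%, interval 61.5 to 69.2), and genes of that kind hold 46.4% of the coding length the rule could keep. No share of this kind is given here for the other peaks. A thresholded summit was within 1 kb of 72 coding-exon peaks (12.4%, interval 9.99 to 15.4), against 4.66% of the coding bases and 21.2% of the other peaks. It was within 444 bp for 11 (1.90%), against 0.347% of the bases. The median distance was 3267 bp for the coding-exon peaks, close to the 3187 bp of the other peaks, and 6964 bp for the bases. The homeobox gene caup of the Iroquois complex shows how such a neighbour enters a value. Its coding summit had a pooled signal of 56.2 with a thresholded summit 205 bp away, and partners of 62.8 in replicate 1 and 133 in replicate 2, both with non-coding summits.

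Across the arms, 112 peaks were on 2L, 129 on 2R, 131 on 3L, 133 on 3R, 3 on chromosome 4 and 71 on X. The X share of 12.3% (interval 9.84 to 15.2) was below the 17.9% of the coding length there and the 17.4% of other peaks on X, but among the 45 coding-exon peaks of the 15000 strongest it was 20%. On 2L, 2R and 3L the peaks' shares were 19.3%, 22.3% and 22.6%, against 18.3%, 19.2% and 19.4% of the coding length. On 3R they were 23.0% against 23.9%. No test was run, because the arms are not replicates.

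The base composition at these summits was close to that of coding sequence in general. The window within 50 bp of the summit averaged 47.7% A and T (SD 7.65, n = 579 peaks), against 61.6% at the other peaks, 62.1% at intronic peaks and 65.7% at thresholded peaks outside the coding set. For the 339 windows wholly in coding sequence over 500 bp from any start site the mean was 45.4%. The other 240, which crossed a coding edge or came within 500 bp of a start site, averaged 51.1%. The 141092 tiles of that length cut from coding sequence averaged 46.1% (SD 7.17), and they are the coding windows of the motif counts below. For 236 peaks a coding window 300 bp away in the same stretch could be set beside the summit. A and T made up 45.7% at the summit (SD 7.01) and 46.1% in the flank (SD 6.93), a paired difference of -0.46 percentage points (SD 6.64). The summit was richer in 106 pairs, poorer in 113 and equal in 17 (exact sign test, p = 0.685).

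None of the motifs searched passed the test at the coding summits. In the same 236 pairs, 22 motifs were compared between summit and flank on both strands by exact McNemar tests, and 0 passed after adjustment (a background of 0%), with 0 at an unadjusted p under 0.05. The smallest unadjusted p was 0.0625, for a run of 6 G, in 0 summit windows and 5 flanks. The search took the homeodomain core TAAT with its longer forms TAATTA and TAATTG, which contain it, and the joint Exd and Hox site TGATNNAT. It took the promoter motifs TATAAA of the TATA box, TATCGATA of DREF, GGTCACAC of M1BP and CCAAT of the CCAAT box, and the insulator motif CGATA of BEAF-32, which the DREF site contains. It also took GAGAG of the GAGA factor, AGATAAG of GATA factors, CAGGTAG of Zelda, GCCAT of Pho, AACCGGTT of Grainyhead and AGGTCA of nuclear receptors. The rest were the E-boxes CAGCTG and the related CACCTG and the palindromic CACGTG, and the simple repeats CACACA of alternating bases, CAGCAGCAG of glutamine codons, AAAAAA of an A tract and GGGGGG of a G tract. The homeodomain core TAAT was in 31.4% of summit windows, 28.0% of flanks and 27.9% of all coding windows. The homeodomain palindrome TAATTA was in 0.424% of summit windows, 0.424% of flanks and 0.50% of coding windows. At thresholded peaks outside the coding set, TAAT was in 75.1% of windows and TAATTA in 9.74%, and at all 579 coding-exon peaks the shares were 36.3% and 0.518%. Those sets averaged 65.7% and 47.7% A and T in that order, and the shares were not adjusted for composition. The variant TAATTG was in 2.54% of summit windows, 0.847% of flanks and 2.25% of coding windows. The core GCCAT of Pho, which recruits Polycomb complexes, was in 23.3% of summit windows, 28.0% of flanks and 24.9% of coding windows, and the GAGA factor's GAGAG in 11.4%, 13.1% and 12.5%. The repeat CAGCAGCAG, which encodes the glutamine runs common in fly transcription factors, was in 4.24%, 2.97% and 3.24%. A motif match is a description of letters, and its absence says nothing of the factor.

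**Figure D4:**
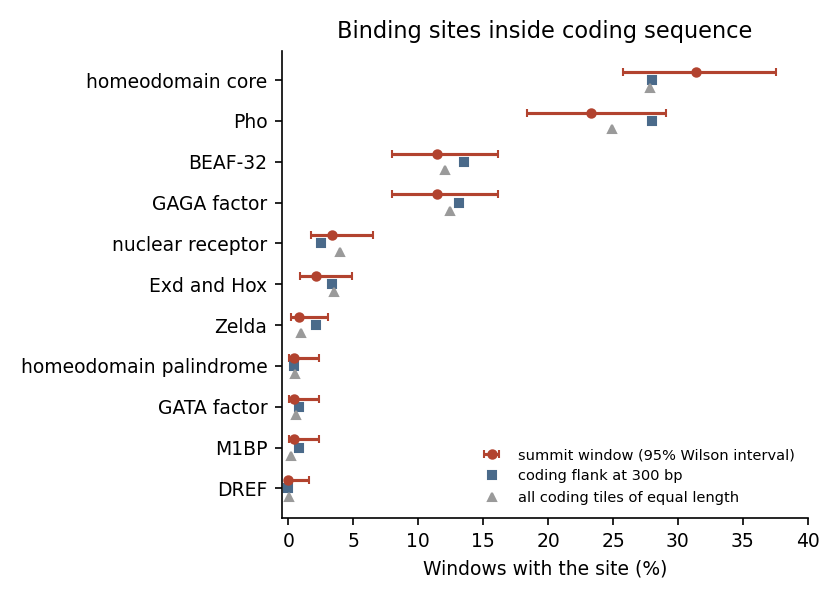
Points give the percentage of windows of 50 bp either side with each factor's site at 236 coding-exon summits (circles, 95% Wilson intervals), in the paired coding flank 300 bp away (squares) and in all coding tiles of the same length (triangles). For the homeodomain core they stand at 31.4%, 28.0% and 27.9%. The motifs drawn were picked by hand from the 22 tested, and TAATTG and CCAAT are among those left out.

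Of the 519 host genes, 467 had 1 coding-exon peak, 46 had 2, 4 had 3 and 2 had 4, out of the 12369 coding genes with sequence the rule could keep. Genes with more coding sequence that the rule could keep were hit more often, at a median of 1449 bp in host genes and 1002 bp in all. Both genes with 4 peaks had weak ones. In Mob2 (FBgn0259481), a cofactor of NDR kinases, the 4 signals were 41.2, 35.0, 34.8 and 27.2, and 2 had both partners. In br (FBgn0283451), the zinc finger factor of the early ecdysone response whose isoforms differ in their zinc finger exons, they were 46.1, 36.6, 29.4 and 28.2, and only the first had both partners, at 22.5 and 23.4. In bif the signals were 124, 64.6 and 40.3, and the first pair share a replicate 1 partner. In shn (FBgn0003396), a zinc finger factor of Dpp signalling, they were 87.9, 31.2 and 28.4, where the first had 48.5 in replicate 1 and 48.3 in replicate 2. The shn peak of 31.2 had that same replicate 2 partner, and its partners in both replicates were nearer to another pooled summit.

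Of 18 lists of genes, 39 peaks fell in any and 540 in none, and 5 lists had no peak. The lists are described by their share of the 579 peaks beside their share of the coding length the rule could keep, with no test. Regulators of the ecdysone response, the steroid pathway that drives wandering and pupariation, held 9 peaks (1.55%, against 0.282% of the length), 4 of them in br, 3 in Eip75B and 2 in EcR. In the list of replicate 2 alone the share was 0.916%, with 6 peaks. Of the 9, 3 had both partners, 1 was coding in every transcript, and the strongest, in EcR (FBgn0000546), the ecdysone receptor, had a signal of 47.9 with a partner of 36.2 in replicate 1 alone. In Eip75B (FBgn0000568), a nuclear receptor induced by ecdysone, the signals were 47.7, 32.3 and 32.1, and the first had partners of 29.1 and 14.8.

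Homeobox genes, the family of OdsH itself, held 6 peaks (1.04%, against 0.761%), of which otp and caup were the strongest. Translation factors held 5 (0.864%, against 0.335%), none with both partners, and the strongest was in eEF5 at 44.8. Ribosomal protein genes held 3 (0.518%, against 0.0845%), with RpL8 at 62.2 and partners of 29.0 and 30.01. Larval serum and fat body genes held 3 (0.518%, against 0.188%), led by Lsp1gamma at 43.7. Actin and tubulin genes held 2 (0.345%, against 0.102%), betaTub56D at 38.7 and alphaTub67C at 30.7, both with partners in each replicate.

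Adhesion and planar polarity cadherins held 3 peaks (0.518%, against 0.596%), led by shg, which encodes E-cadherin, at 47.3. Cuticle proteins held 2 (0.345%, against 0.232%), led by Cpr51A at 59.8 with partners of 26.2 and 27.7. Chitin and peritrophic matrix genes held 2 (0.345%, against 0.764%), with serp at 29.0 and knk at 28.0. Muscle structure genes held 1, in Zasp52 at 31.7 (0.173%, against 1.13%), and extracellular matrix genes held 1, in Pxn at 29.1 (0.173%, against 0.856%). Heat shock genes held 1, in Hsp67Ba at 38.9 (0.173%, against 0.126%), and olfactory and gustatory receptors held 1, in Gr61a at 29.3 (0.173%, against 0.895%). Salivary glue, histone, glycolysis, chorion, and spectrin and giant cytoskeleton genes held 0, the last with 0.891% of the length.

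**Figure D5:**
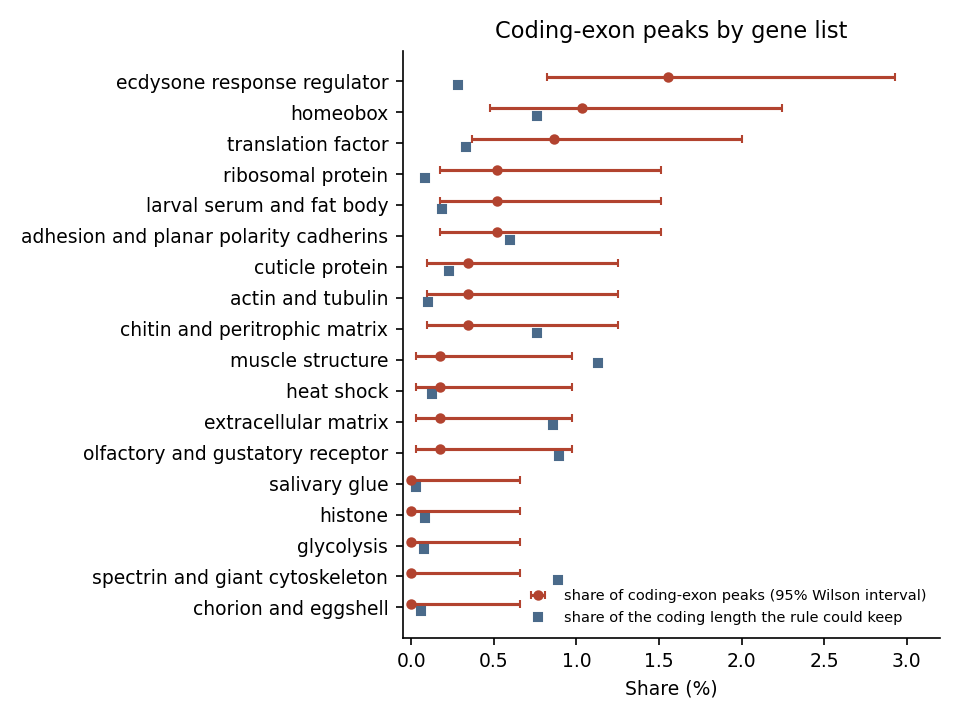
For each of the 18 gene lists, circles give its percentage of the 579 coding-exon peaks with the 95% Wilson interval, and squares give its percentage of the coding length that the rule could keep. The ecdysone response regulators stand at 1.55% and 0.282%, and muscle structure genes at 0.173% and 1.13%.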

How the data were processed

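Peaks were read from the dm6 narrowPeak lists deposited by the authors, one per replicate, one on both replicates pooled and one thresholded on the irreproducible discovery rate. The deposited signal is the value of the authors' caller, and the deposited −log10 q-value is theirs too. Which aligner and caller made them is not given in the sources used here, and the control library was not analysed here. Relaxed lists stop at 30000 peaks, so their weakest peaks depend on that limit. The lists for dm3 were not used.

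Summits were placed on Ensembl BDGP6 release 115, and sequences came from the same Release 6 assembly in RefSeq. No peak lay outside its arm. Motifs and gene lists were set by hand, and the members and lists were chosen with earlier results of these data known. Named genes were hosts of the 15 strongest coding-exon peaks, of every one in the thresholded list, of the 5 genes with most peaks, and of the 2 strongest in each list. Fisher's, McNemar's and sign tests were exact and two-sided, at 0.05 after Benjamini-Hochberg adjustment. The 1 group allowed no test across samples. Python 3.11.15, numpy 2.4.6, scipy 1.17.1, pandas 2.3.3, statsmodels 0.14.6 and matplotlib 3.10.9 were used, and the motif test was tested on simulated data.

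Alternatives were start-site distances of 250 and 1000 bp, coding in every transcript, other windows and flanks, the 15000 strongest peaks, and each replicate's own list. For recurrence they also included partner distances of 100 and 500 bp and weighting to signal deciles. For the thresholded share they included a comparison with other peaks outside promoters only.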

Additional observations from a re-analysis of the deposited data

How the results depend on the processing

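No paired analysis was possible because there was 1 group. Of 30000 peaks, 737 (2.46%) were coding with a start-site distance of 250 bp, 362 (1.21%) with 1000 bp and 475 (1.58%) when coding in every transcript. Of the 15000 strongest, 45 (0.3%) were coding. Leaving out a replicate gave 2.17% to 2.18%. The gap in recurrence kept its direction and significance under 6 alternatives. In one of these, with the other peaks weighted to signal deciles, it shrank to -5.82 percentage points, from -40.6 as reported. Among the 15000 strongest, where 45 coding-exon peaks are left, it was -2.67 percentage points and not significant. The gap in the thresholded list kept its direction and significance under all 6. Where a replicate was left out, the thresholded list was replaced by the 7223 strongest peaks of the other replicate's own list. The motif count stayed at 0 in 10 alternatives. The A and T difference changed sign with a flank at 200 bp (0.0153 percentage points) and without replicate 2 (0.159), with a range of -0.387 to 0.159 when a replicate was left out. TAAT at the summit minus the flank changed sign with a flank at 200 bp (-1.93 points), a window of 51 bp (-0.314) and a start-site distance of 250 bp (-0.980). It was 3.39 points as reported, 8.56 without replicate 2 and 9.66 at a start-site distance of 1000 bp. Neither had passed its test. Among alternatives chosen after the data were seen, ecdysone regulators fell to 0.211% of the peaks coding in every transcript, and to 0% of the 15000 strongest, and were 0.916% (6 peaks) without replicate 1, against 1.55%. The X share was 9.68% when coding in every transcript and 20% among the 15000 strongest, and 30.4% of summits were within 50 bp of an edge without replicate 1, against 38.0%. The depth of the libraries is unknown, so whether the weak peaks are limited by it was not tested.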
